A study of Mus musculus with 23 samples.

Results

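Genes for subunits of the proteasome and for enzymes of the ubiquitin system were examined in mouse hindlimb muscle. Probe sets with 1 gene symbol in the platform annotation were taken where the symbol began with Psma, Psmb, Psmc, Psmd or Psme and a digit, or was Fbxo21, Traf6, Nedd4, Stub1, Ube2b, Ube2d1, Ube2j1, Usp14 or Usp19. This gave 52 genes of the 12393 with such a probe set, and where a gene had several probe sets, the one brightest on average over the 23 arrays stood for it. They comprise 18 genes of the 20S core, 23 of the regulatory particles and 9 enzymes. The other 2, Psmc3ip and Psme3ip1, encode partner proteins whose symbols match the pattern, and they were kept apart from these classes. The core and regulatory classes follow the symbols alone, not presence in the finished particle. A filter on low values left 51 of the 52 for testing, out of 9133 genes tested in all. The gene left out, Psma8, encodes a core subunit known mainly from testis and had log2 values of 3.97 to 4.41 on the 23 arrays. The activator subunit Psme2 is not a member, because its probe set carries 2 symbols.

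All mice were female C57BL/6J aged 77 days, and each of the 23 samples was hybridised to 1 Affymetrix array. In the flight experiment, gastrocnemius came from mice that spent 11 days and 19 hours in space (spaceflight, n = 4) or an equal time on Earth in an animal enclosure module, the flight cage (ground AEM, n = 4). In the calf experiment, calf muscle came from normally housed mice (control, n = 5), from mice held by the tail for 12 days so that the hindlimbs bore no load (suspension, n = 5), or from mice that after such a suspension stood on their legs again for 3.5 hours (reloaded, n = 5). Titles, source names and the series design agree on these groups, whereas the free-text descriptions of the ground AEM and spaceflight samples are exchanged. Were the descriptions correct instead, all differences between spaceflight and ground AEM given here would change sign. The differences between the flight effect and the calf effects would then also change in size. The labels do not say that replicates are separate animals, and p-values therefore reflect only sample-to-sample spread, which may be technical. Muscle is a mixed tissue, and in such bulk samples fewer cells of a type and less RNA per cell cannot be told apart.

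Arrays had median log2 values of 6.15 to 6.23 in the flight experiment and 6.28 to 6.39 in the calf experiment. Their array range, the interquartile range of the log2 values, was 2.75 to 2.91 and 2.20 to 2.46, so levels were not compared between the experiments. Suspension replicate 8 had the lowest array range, 2.20, and the lowest median correlation with its group, 0.985, against 0.989 to 0.995 on the other arrays. Muscle fibre markers were high throughout (mean log2 per array 13.3 to 13.5 over 6 genes), and 0 of the 6 were called in any comparison. Adipocyte markers were higher in flight for 4 of 5 genes, with array means of 7.68 to 7.93 on ground AEM arrays and 8.61 to 9.08 on spaceflight arrays. Fibroblast and tendon markers were lower in flight for 2 of 7 genes, with array means of 8.20 to 9.10 and 8.00 to 8.49. Also lower in flight were 1 of 7 slow fibre genes (Myl2), 1 of 7 endothelial genes (Kdr) and the 1 erythroid gene tested (Alas2). The slow fibre and endothelial lists had median flight differences of 0.02 and 0.03, opposite in sign to these genes. In suspension, 1 of 3 Schwann cell markers was called higher, and 1 of 7 slow fibre and 1 of 7 fibroblast and tendon markers lower. Unadjusted p-values under 0.05 in suspension were found for 6 of 7 slow fibre (median difference -0.31), 5 of 7 fibroblast and tendon (-0.56), 4 of 5 adipocyte (0.53) and 3 of 3 Schwann cell markers (1.10). The part of these cell type markers in the results below was not tested.

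The ubiquitin-proteasome system removes most short-lived and damaged proteins of a cell and is a main route of protein loss in muscle atrophy. An activating enzyme passes ubiquitin to conjugating enzymes (E2), ligases (E3) place it on the substrate, and deubiquitinases take it off again. The 20S core is a barrel of alpha rings (Psma genes) around beta rings (Psmb genes) that cut the substrate. The 19S regulatory particle caps the barrel, with a ring of ATPases (Psmc genes) that unfold the substrate. Most Psmd genes encode its non-ATPase subunits, some of which bind and strip ubiquitin. Psme genes encode alternative caps. Interferon replaces the catalytic subunits Psmb5, Psmb6 and Psmb7 with Psmb8, Psmb9 and Psmb10, which form the immunoproteasome.

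Promoters of 4 members are shown, because Psma4 and Ube2j1 passed the test in flight in opposite directions, and Psmb5 and Psmb8 are a constitutive catalytic subunit and its inducible counterpart. The RefSeq promoter table (build GRCm38.p6) held 49 windows for 44 of the 52 members. The bases shown lie upstream of the gene's start, 250 for each gene except Psma4, where they are 172 because the start site of its window lies inside the annotated gene and the bases within the gene are not shown. They run 5′ to 3′ on the gene's strand, which is the plus strand for Psma4 (chr9:54950609-54950780), Ube2j1 (chr4:33031130-33031379) and Psmb8 (chr17:34197945-34198194) and the minus strand for Psmb5 (chr14:54617996-54618245). Capitals mark matches, on either strand, to the antioxidant response element TGACNNNGC, the site of NRF1 and NRF2, which drive proteasome genes.
Psma4: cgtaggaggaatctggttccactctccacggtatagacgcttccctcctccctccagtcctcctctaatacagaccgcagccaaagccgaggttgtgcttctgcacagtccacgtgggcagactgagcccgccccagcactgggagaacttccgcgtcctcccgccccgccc
Ube2j1: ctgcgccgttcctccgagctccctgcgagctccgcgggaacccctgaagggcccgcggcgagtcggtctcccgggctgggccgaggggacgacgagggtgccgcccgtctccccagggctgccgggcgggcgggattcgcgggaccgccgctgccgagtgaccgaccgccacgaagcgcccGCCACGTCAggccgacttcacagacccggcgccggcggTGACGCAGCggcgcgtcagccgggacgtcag
Psmb5: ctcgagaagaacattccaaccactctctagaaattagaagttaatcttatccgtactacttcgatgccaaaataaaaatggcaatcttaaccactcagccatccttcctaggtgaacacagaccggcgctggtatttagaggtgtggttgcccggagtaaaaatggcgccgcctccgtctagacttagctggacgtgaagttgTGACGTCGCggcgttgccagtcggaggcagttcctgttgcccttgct
Psmb8: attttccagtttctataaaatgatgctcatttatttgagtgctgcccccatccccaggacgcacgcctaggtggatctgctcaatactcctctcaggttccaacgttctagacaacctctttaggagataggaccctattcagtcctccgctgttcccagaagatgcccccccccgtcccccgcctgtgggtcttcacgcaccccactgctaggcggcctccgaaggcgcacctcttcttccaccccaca
Ube2j1 held 2 matches, Psmb5 held 1, and Psma4 and Psmb8 held 0, for Psma4 also over its full 250 bases. Over all members, 7 of 49 windows (14.3%) held this motif in the 250 bases before the start, against 10.2% of 32851 windows in the table. The CCAAT motif was in 16 of 49 (32.7%), against 33.9% of all windows. The interferon regulatory factor motif AANNGAAA was in 10 of 49 (20.4%), against 21.3%. All were searched on both strands, and overlaps between motifs were allowed. Pooled over the members, these shares lie near those of all promoters. By class, CCAAT was in 7 of 15 core, 6 of 21 regulatory and 1 of 10 enzyme windows. The response element was in 2, 3 and 2 of these windows, and the interferon motif in 3, 6 and 1. Differences between the classes were not tested. A match is only a description of letters, and these motifs were chosen after seeing the data.

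In flight, 3 of the 51 members passed the test. Ube2j1, an E2 of the endoplasmic reticulum membrane that acts in the disposal of misfolded proteins, rose 1.32-fold. Psma4, an alpha ring subunit, and Psmd7, a lid subunit that pairs with the deubiquitinase Psmd14, both fell, to 0.781 and 0.783 times the ground AEM level. A gene was called at an adjusted p under 0.05, from limma with Benjamini-Hochberg adjustment over all 9133 genes. The same rule called 5.64% of all genes tested in this comparison (515), so the members' count lies near the background. Flight and ground arrays did not overlap for 10 of 51 members, 5 above and 5 below, against 12.4% of all genes.

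Ube2j1 had log2 values of 8.47, 8.50, 8.43 and 8.25 on the ground AEM arrays and 8.83, 8.83, 8.83 and 8.75 on the spaceflight arrays. Every flown sample was above every ground sample, and the difference was 0.40 (SE 0.077, 95% interval 0.23 to 0.56, adjusted p = 0.00953 by limma). A second probe set of Ube2j1 was also higher, by 0.25 (SE 0.081), with an adjusted p of 0.0985 in the limma fit over 13614 probe sets. Psma4 gave 10.65, 10.80, 10.41 and 10.43 on the ground and 10.33, 10.16, 10.19 and 10.18 in flight. Its highest flown sample, replicate 8, lay just under the lowest ground sample. The difference was -0.36 (SE 0.095, 95% interval -0.56 to -0.15, adjusted p = 0.0448). Psmd7 gave 9.15, 9.19, 9.26 and 9.24 on the ground and 9.05, 8.83, 8.79 and 8.77 in flight. The groups again stood apart, by -0.35 (SE 0.081, 95% interval -0.53 to -0.18, adjusted p = 0.0236). Both other probe sets of Psmd7 lay under the filter, with mean log2 values of 5.43 and 4.30 and flight differences of -0.02 and -0.09.

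The Ube2j1 call held under every setting tried for this probe set, whereas those of Psma4 and Psmd7 did not. Psma4 lost its call without ground AEM replicate 1 (adjusted p = 0.0852 by limma) or 2 (0.101), or spaceflight replicate 8 (0.0601), 9 (0.113), 10 (0.103) or 11 (0.0941), without a filter (0.0570) and with array range as a covariate (0.0694). Psmd7 lost it without ground AEM replicate 3 (0.0695) or 4 (0.0605), or spaceflight replicate 9 (0.0674), 10 (0.0680) or 11 (0.0624), with all 23 arrays in the fit (0.156) and with the mean of its probe sets (-0.16, adjusted p = 0.213). With 1 array left out, the differences themselves ran from -0.41 to -0.28 for Psma4 and from -0.42 to -0.32 for Psmd7.

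**Figure D1:**
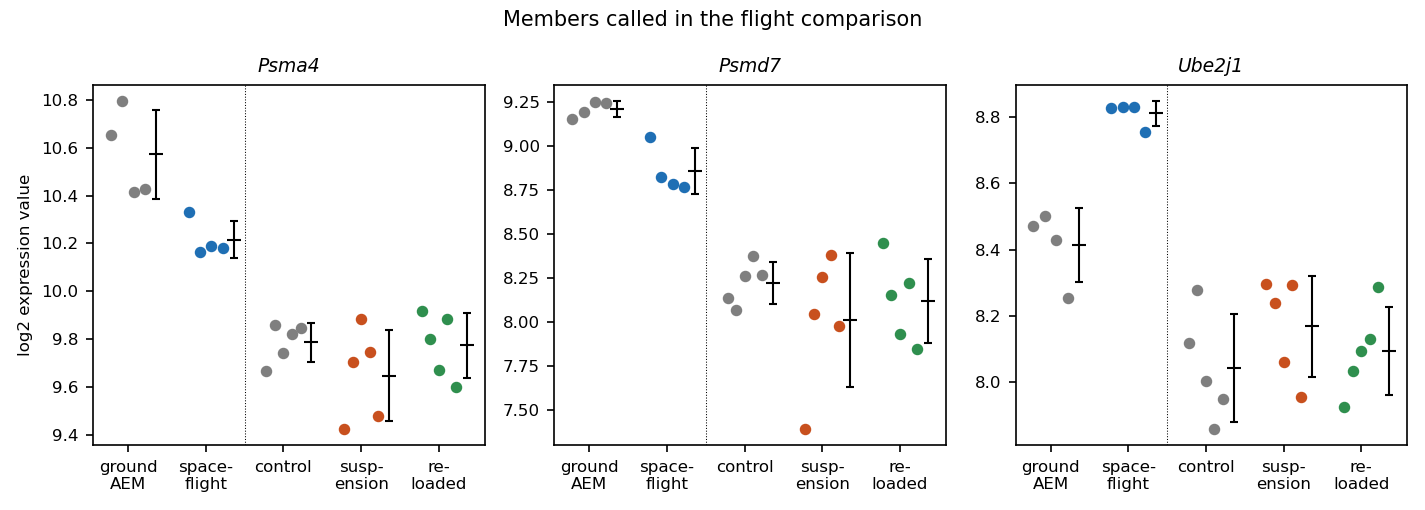
Log2 expression values (vertical axis) of Psma4, Psmd7 and Ube2j1 on each of the 23 arrays, by group; points are arrays, and the black mark and bar beside them are the group mean and SD. The 4 spaceflight arrays lie below the 4 ground AEM arrays for Psma4 and Psmd7 and above them for Ube2j1, while the calf groups to the right of the dotted line overlap.

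The rest of the core was close to its ground level in flight. Of the 17 core genes tested, 7 differences were above 0 and 10 below, with a median of -0.03 beside -0.01 for all genes. After Psma4, the lowest was Psmb10, an inducible catalytic subunit. It gave 7.97, 7.95, 7.84 and 8.08 on the ground and 7.76, 7.75, 7.78 and 7.72 in flight, which did not overlap, but its difference of -0.21 (SE 0.074) did not pass the test (adjusted p = 0.132 by limma). Psmb5 was also below in every flown sample, at 10.73 to 10.83 against 10.86 to 10.99, and differed by -0.14 (adjusted p = 0.280). At the other end, Psmb9 differed by 0.14 with overlapping groups and Psmb2, a non-catalytic beta subunit, by 0.13 without overlap, and neither was called.

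The 23 regulatory particle genes had a median flight difference of -0.02, with 11 above 0 and 12 below. Psme1, a subunit of the interferon-inducible 11S cap, gave 8.48 to 8.65 on the ground and 8.69 to 8.83 in flight. Its difference of 0.20 (SE 0.074) missed the threshold (adjusted p = 0.149 by limma). The ATPase Psmc5 was higher by 0.16 without overlap (adjusted p = 0.229), and the ATPase Psmc6 was lower by a difference of -0.18 with overlap (adjusted p = 0.220). A second tested probe set of Psmc6, with a mean log2 of 7.29, went the other way, by 0.12.

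The 9 enzymes had a median flight difference of -0.02. Apart from Ube2j1, none was called. Traf6, an E3 ligase of inflammatory signalling, differed by 0.20 (adjusted p = 0.220 by limma), and Stub1, the E3 ligase that works with heat shock chaperones, by 0.15 (0.403). Usp14, a deubiquitinase bound to the proteasome, differed by -0.19 (0.200), with ground values of 8.15 to 8.35 and flight values of 8.03 to 8.19. The E2 enzymes Ube2b and Ube2d1 differed by -0.09 and -0.02, the E3 ligase Nedd4 by -0.04, the F-box protein Fbxo21 by 0.01 and the deubiquitinase Usp19 by -0.04. Other tested probe sets gave -0.27 and -0.15 for Nedd4, 0.23 for Fbxo21, -0.17 and -0.01 for Usp19 and -0.01 for Ube2b. They gave 0.04 for Traf6, 0.0042 for Stub1, and -0.08 and 0.08 for Usp14, so these differences depend on the probe set. Of the partner proteins, Psme3ip1 stood above in all 4 flown samples (9.26 to 9.33 against 8.88 to 9.22), with a difference of 0.27 (SE 0.083, adjusted p = 0.0773). That value passed the threshold with array weights, with an eBayes trend and robust estimation, and without ground AEM replicate 1.

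Suspension and reloading gave 0 called members, by limma, in each of the 3 calf comparisons. Unadjusted p-values under 0.05 were found for 2 of 51 members in suspension minus control, 3 in reloaded minus suspension and 4 in reloaded minus control. The shares of all genes called were 0.372%, 0.58% and 0.318%, and the shares with an unadjusted p under 0.05 were 8.65%, 9.14% and 7.27%. Groups did not overlap for 1, 0 and 1 members, against 2.04%, 1.46% and 2.64% of all genes. The precision allowed bounds: for all 51 members, the 95% interval of the difference lay within 1.5-fold in either direction in all 4 group comparisons. Over all genes, 93.7% did so in flight, 97.9% in suspension, 97.6% in reloaded minus suspension and 98.3% in reloaded minus control. For members with values close to the filter's floor, such as Psmb9 and Traf6, or mostly under it on the calf arrays, as for Psmd10, these bounds are less certain.

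**Figure D2:**
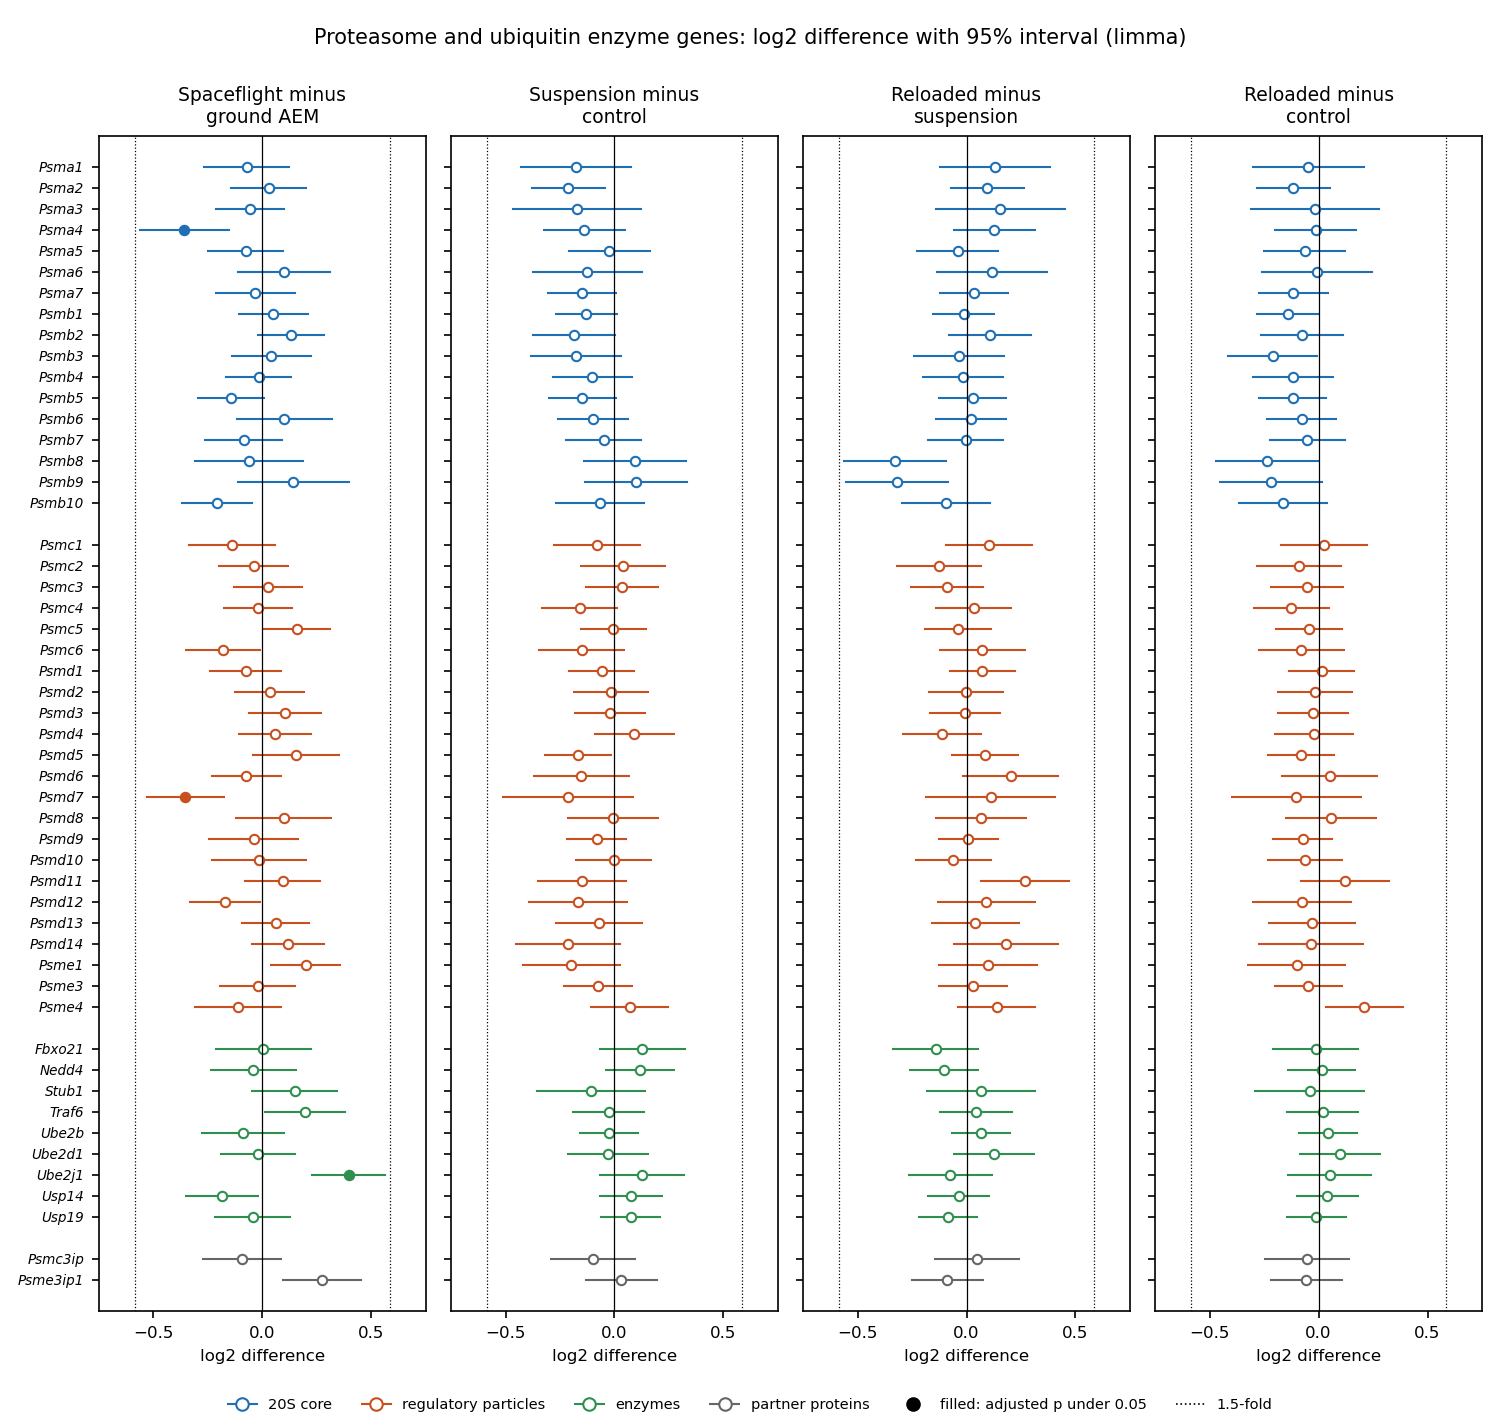
Log2 difference (horizontal axis) of each of the 51 members tested in the 4 group comparisons, with its 95% interval from limma, coloured by class; filled points have an adjusted p under 0.05 and dotted lines mark 1.5-fold. Only Psma4, Psmd7 and Ube2j1 in the flight panel are filled, and no interval crosses a dotted line.

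Most core and regulatory genes were slightly lower in suspended calf muscle, none of them past the test. Differences were below 0 for 15 of 17 core genes (median -0.13) and 19 of 23 regulatory genes (median -0.08), against 49.1% of all genes (median 0.00). The enzymes showed no such tilt, with 4 of 9 below 0 and a median of 0.08. One array stood low: suspension replicate 8 was below the mean of the other 4 suspension arrays in 14 of 17 core and 21 of 23 regulatory genes, against 4581 of all 9133 genes. It was the lowest of the 5 in 12 core and 16 regulatory genes, against 2815 of all 9133 genes. Without it, the medians were -0.07 and -0.04, with 12 of 17 and 14 of 23 below 0. Without control replicate 22, the highest control array for both classes, they were -0.11 and -0.04. Under the alternative settings listed below, the regulatory median ran from -0.08 to -0.02, with 13 to 19 of 23 genes below 0. The core median ran from -0.14 to -0.07, with 13 to 15 of 17 below 0.

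Psma2, an alpha ring subunit, was the member whose suspended and control samples did not overlap. Controls gave 10.24, 10.27, 10.26, 10.37 and 10.25, and suspended samples 10.11, 10.21, 10.13, 9.81 and 10.07. The lowest value was again that of suspension replicate 8, and the difference of -0.21 (SE 0.080) had an adjusted p of 0.391 by limma. Psmd14, the deubiquitinase of the lid, and its partner Psmd7 had the lowest regulatory values, both with a difference of -0.21, and suspended values of 8.76 to 9.54 and 7.39 to 8.38 that overlapped the controls. Both lowest values are those of suspension replicate 8, and without it the differences were -0.08 for Psmd14 and -0.06 for Psmd7. The highest were Psmd4, a ubiquitin receptor, at 0.09 and Psme4, the PA200 cap, at 0.07. In the core, Psmb2 differed by -0.19, and the highest values were those of Psmb8 and Psmb9, 0.09 and 0.10. Without suspension replicates 8 and 9, these were -0.06 and -0.10. The enzymes ran from -0.11 for Stub1 to 0.13 for Fbxo21 and Ube2j1, with Nedd4 at 0.12, Usp14 and Usp19 both at 0.08, Ube2b at -0.02, and Traf6 and Ube2d1 both at -0.03.

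Reloaded muscle was compared with the same 5 control arrays, so this comparison and that of suspension with control are not independent. All 17 core genes tested had reloaded means below control means (median -0.12), against 58.2% of all genes (median -0.02), although none was called. Psma4 and Psma6 were nearest to control, both with a difference of -0.01. Regulatory genes had a median of -0.04 with 17 of 23 below 0, and the enzymes 0.02 with 3 of 9 below 0. Reloaded replicate 16 had the lowest class medians of its group, -0.24 for the core and -0.19 for the regulatory particles relative to the control mean. Without it, the core median was -0.05 with 14 of 17 genes below 0, and the regulatory median 0.00 with 10 of 23. Without control replicate 22, 13 of 17 core genes were below 0.

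**Figure D3:**
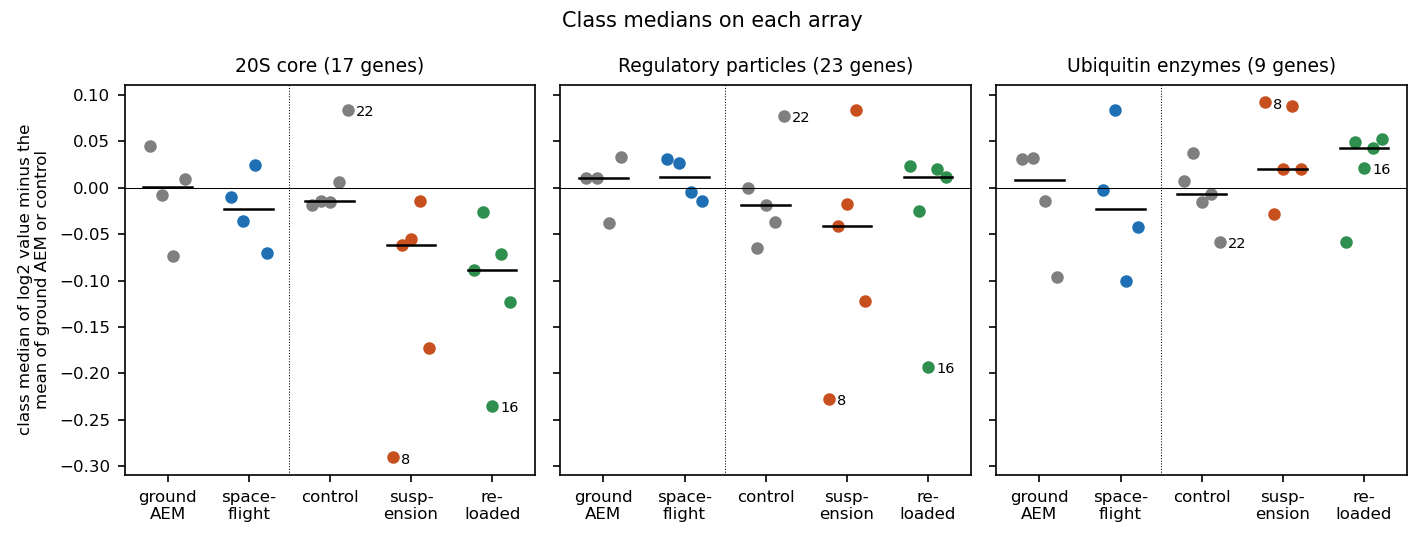
Median over the tested genes of a class of the log2 value minus the gene's mean in its own baseline group (vertical axis), 1 point per array, with the median of each group as a black line; the baseline is ground AEM left of the dotted line and control right of it. Suspension replicate 8 and reloaded replicate 16 are the lowest points for the core and the regulatory particles, and control replicate 22 is the highest control for both.

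Between suspension and reloading, the largest decreases among the members were those of the inducible subunits Psmb8 and Psmb9. Psmb8 gave 6.72, 6.65, 6.87, 7.03 and 7.22 in suspended and 6.64, 6.72, 6.23, 6.71 and 6.55 in reloaded muscle. The groups overlapped, and the difference was -0.33 (SE 0.11, adjusted p = 0.333 by limma). Psmb9 gave 6.12, 6.03, 6.24, 6.62 and 6.65 against 6.10, 5.95, 5.92, 6.10 and 5.99, a difference of -0.32 (SE 0.11, adjusted p = 0.350). The start sites of these genes lie 10865 bases apart on chromosome 17 in the RefSeq table. Suspension replicates 8 and 9 were the highest of the suspended samples for Psmb8, Psmb9 and Psmb10. Leaving both out moved the differences to -0.18 for Psmb8 and -0.12 for Psmb9, and array weights moved them to -0.18 and -0.15. Psmb10 differed by -0.09, and the constitutive counterparts Psmb5, Psmb6 and Psmb7 by 0.03, 0.02 and 0.00. Against control, reloaded values differed by -0.23 for Psmb8 (-0.15 without reloaded replicate 16), -0.22 for Psmb9 and -0.16 for Psmb10, and by -0.12, -0.08 and -0.05 for the constitutive subunits.

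**Figure D4:**
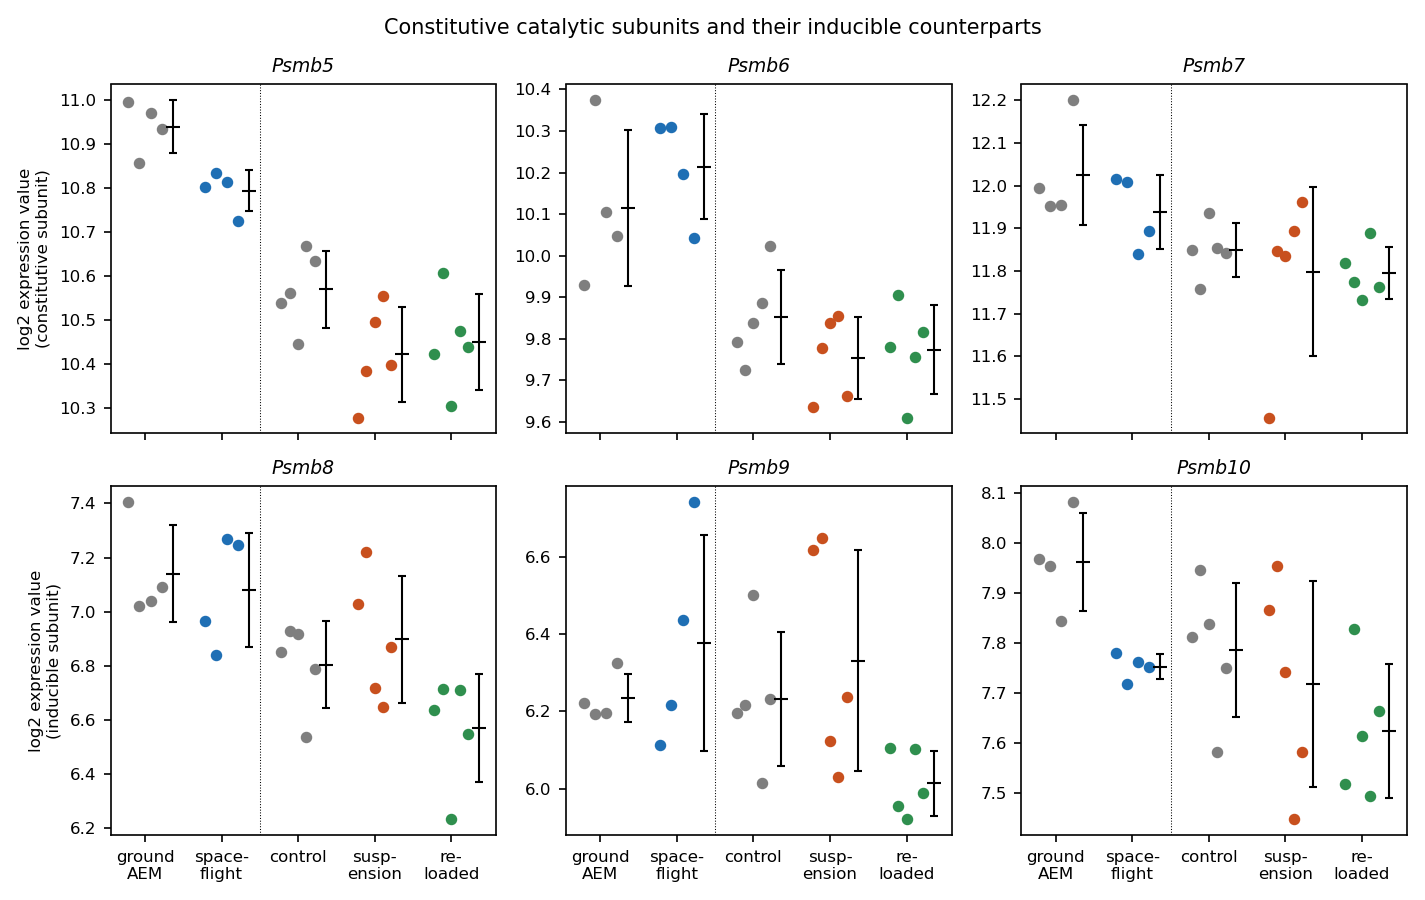
Log2 expression values (vertical axis, a separate scale in each panel) of the constitutive catalytic subunits in the top row and their inducible counterparts below, on each array by group, with group mean and SD in black. Psmb8 and Psmb9 are spread widely in suspension, where 2 arrays are highest, and none of the differences between calf groups passed the test.

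Interferon and antigen presentation genes were counted beside the inducible subunits. In flight, 2 of 14 tested were lower, Irf1 (-0.39, SE 0.099, adjusted p = 0.0365 by limma), a transcription factor that acts on immunoproteasome genes, and the GTPase gene Iigp1 (-0.44, SE 0.11, adjusted p = 0.0376), and 0 were higher. The list's median flight difference was 0.07, opposite in sign to these genes, and 5.64% of all genes were called. In the 3 calf comparisons 0 of 14 were called, with 1, 0 and 1 at an unadjusted p under 0.05. The mean over these genes was 7.35 to 7.58 on suspension arrays and 7.33 to 7.44 on reloaded arrays. Leukocyte and macrophage markers were called in 0 of 10 tested genes in every comparison (0 to 3 at an unadjusted p under 0.05), and their array means were 7.02 to 7.47 in suspension and 7.17 to 7.26 in reloading. Ptprc, a defining leukocyte gene, lay under the filter.

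Among regulatory genes, the highest difference on reloading was that of Psmd11, a lid subunit. Suspended samples gave 10.91, 11.00, 10.90, 10.53 and 10.66 and reloaded samples 11.08, 11.14, 10.77, 11.26 and 11.11. All but replicate 16 of the reloaded samples exceeded every suspended one, and the difference was 0.27 (SE 0.097, adjusted p = 0.360 by limma), or 0.13 without suspension replicates 8 and 9. The lid subunit Psmd6 followed with 0.20, or 0.12 without suspension replicate 9 and 0.02 without replicates 8 and 9. The ATPase Psmc2 and the receptor Psmd4 were lowest with -0.13 and -0.11. In the core, Psma3 and Psma1 had the highest differences, 0.16 and 0.13, which were -0.01 and -0.0034 without suspension replicate 8. The reloaded minus suspension medians were 0.02 for the core, 0.07 for the regulatory particles and -0.04 for the enzymes, beside -0.02 for all genes. Without suspension replicate 8, the core and regulatory medians were both -0.01, so their sign is not settled. Against control, the ATPase Psmc4 and Psmd7 were lowest, with -0.13 and -0.10, and Psmd11 and Psme4 highest, with 0.12 and 0.21. Psme4 was the member with no overlap between reloaded muscle (10.28 to 10.45) and control (10.09 to 10.28), and had an SE of 0.084 and an adjusted p of 0.570. The enzymes differed from suspension by -0.14 (Fbxo21) to 0.13 (Ube2d1), and from control by -0.04 (Stub1) to 0.10 (Ube2d1).

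The flight effect was set against the calf effects with a test of the difference itself. By limma, 0 of 51 members passed for the suspension effect (8 at an unadjusted p under 0.05), against 1.27% of all genes called. For the reloaded-versus-control effect, 0 of 51 passed (10 at an unadjusted p under 0.05), against 2.74% of all genes. The shares of all genes with an unadjusted p under 0.05 were 12.2% and 13.8%. The flight comparison and these differences share the flight arrays. Ube2j1 differed between flight and suspension by 0.27 (95% interval 0.01 to 0.53, adjusted p = 0.388), Psma4 by -0.22 (-0.49 to 0.06, adjusted p = 0.534) and Psmd7 by -0.14 (-0.53 to 0.25, adjusted p = 0.824). With the groups as titled, the 3 flight calls are therefore not shown to be particular to flight. With the flight groups exchanged, Ube2j1 (-0.52, adjusted p = 0.0112 by limma) and Psma4 (0.50, adjusted p = 0.0246) were called for the suspension effect. Psme1, at 0.20 in flight and -0.20 in suspension, had the largest difference between these effects, 0.40 (95% interval 0.10 to 0.69, adjusted p = 0.223), or 0.24 without suspension replicates 8 and 9. It was singled out after its values were seen. Intervals for 48 and 46 of 51 members lay within 1.5-fold, against 86.9% and 86.3% of all genes.

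Members with several probe sets gave no further calls. Of the 97 probe sets of the 52 genes, 85 passed the filter, 34 of them not the chosen ones, and 0 of these 34 were called by limma in any of the 6 comparisons.

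A list of 110 other gene symbols of the pathway, some of them alternative names of the same gene, gave 76 tested genes. In flight, 2 were higher, 1 was lower and 12 had an unadjusted p under 0.05. Over all genes tested 5.64% were called and 19.6% had an unadjusted p under 0.05, so neither count exceeds the background. Siah1a, a RING E3 ligase, rose by 0.57 (SE 0.14, adjusted p = 0.0281 by limma), and Usp1, a deubiquitinase of DNA repair, by 0.29 (SE 0.076, adjusted p = 0.0426). Nfe2l2, which encodes the transcription factor NRF2, differed by -0.46 (SE 0.11, adjusted p = 0.0227), whereas Nfe2l1, encoding NRF1, differed by -0.02. Nfe2l2 was -0.21 in suspension and 0.22 in reloaded minus control, and its flight effect differed from the latter by -0.68 (SE 0.17, adjusted p = 0.0249), the only call among the 76 genes in the 2 differences of effects. Fbxo32, which encodes the atrophy-linked ligase atrogin-1, differed by 0.20 in flight (adjusted p = 0.381) and was named after its values were seen. The assembly chaperones and proteasome partners (11 tested), the shuttles and the Vcp segregase group (10) and the other conjugating enzymes (19) had 0 called. In the calf comparisons 0 of the 76 were called, with 3, 3 and 2 at an unadjusted p under 0.05. The 6 listed genes for ubiquitin and its activating enzymes were not analysed here.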

How the data were processed

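The authors deposited log2 expression values (2.49 to 14.2). RMA and MAS5 are named in the submitters' processing notes, and which one produced the deposited log2 table, in what version, is not given in the sources. No normalization was added. Of 22690 probe sets, 64 controls were left out, 20380 had 1 gene symbol, 691 several and 1555 none. Genes were tested where log2 exceeded 5.83 (the table's 40th percentile) on 4 or more arrays. Groups came from the sample titles.

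Groups were compared with limma 3.58.1 in R 4.3.3 (lmFit and eBayes, two-sided), adjusted by Benjamini-Hochberg over 9133 genes and called at 0.05. Separate fits served the 8 flight and the 15 calf arrays, and all 23 entered the differences of effects. The fit was tested on simulated data. The planted changes were larger than any member's difference in the group comparisons, so recovery of smaller changes was not tested. The number of arrays limits the precision. No label gives a batch.

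Members and lists were chosen with earlier results of these data known. Named were the 9 enzymes, called members, the inducible subunits with their counterparts, Psme1, and the 2 largest increases and decreases of the core and of the regulatory particles in each group comparison. Alternatives covered the filter, probe sets, normalization, variance model, array weights, array range, threshold, arrays in the fit and the flight labels.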

Additional observations from a re-analysis of the deposited data

Results flagged for a closer look

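In 15 of 175 groups of values, the highest or lowest sample stood apart from the rest of its group by Dixon's criterion, and chance gives about 1 in 20. In the 20S core, suspension replicate 8 was low for Psma1 (7.53, others 8.11 to 8.26) and Psmb7 (11.46, others 11.83 to 11.96). Control replicate 22 was high for Psma2 (10.37, others 10.24 to 10.27). Spaceflight replicate 8 was high for Psma4, at 10.33 against 10.16 to 10.19, which puts it nearest to the ground samples. Ground AEM replicate 1 was low for Psmb2 (9.61, others 9.70 to 9.71), and ground AEM replicate 4 was high for Psmb7 (12.20, others 11.95 to 11.99).

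For the regulatory ATPases, spaceflight replicate 11 was low for Psmc2 (10.02, others 10.18 to 10.19) and spaceflight replicate 9 for Psmc5 (10.07, others 10.17 to 10.18). Control replicate 2 was low for Psmd6 (10.50, others 10.66 to 10.72). Among the enzymes, reloaded replicate 33 was high for Fbxo21 (7.63, others 7.43 to 7.48), ground AEM replicate 4 was low for Ube2d1 (10.10, others 10.28 to 10.32), and spaceflight replicate 11 was low for Ube2j1 (8.75, others 8.83), though still above all ground samples.

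Class medians relative to the baseline group stood apart on 3 arrays: control replicate 22 was high for the core (0.0842, others -0.02 to 0.01), reloaded replicate 16 was low for the regulatory particles (-0.193, others -0.02 to 0.02), and reloaded replicate 14 was low for the enzymes (-0.0581, others 0.02 to 0.05).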

How the results depend on the processing

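In flight, 3 members were called, 1 to 4 under the alternatives (1 at an adjusted p under 0.01) and 1 to 3 when each array was left out. In the 3 calf comparisons, 0 were called by limma under every alternative and without any single array. For the flight effect minus the suspension effect, 2 were called with the flight groups exchanged (Psma4, Ube2j1). For the flight effect minus the reloaded-versus-control effect, 1 was called with the groups exchanged (Ube2j1), 1 with array weights and 0 to 1 with an array left out (Psme3ip1, without control replicate 21). For the 32 members named by the rule above, which leave out Psme3ip1, 189 differences were not called. Of these, 186 were never called under any setting.

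The regulatory median in flight, -0.02, was 0.0151 with array weights and -0.0336 to 0.0247 with an array left out, so its sign is not settled. The enzymes' suspension median of 0.08 was 0.0174 with the mean of probe sets. In reloaded minus suspension, the 8 core genes below 0 became 5 with the mean of probe sets or with centred arrays and 4 to 13 with an array left out. The 7 regulatory genes became 12 with array weights or array range as a covariate, 13 without suspension replicates 8 and 9, and 4 to 12 with an array left out. The medians of this comparison also changed sign: the core's 0.02 ran from -0.03 to 0.04 under the alternatives and the regulatory particles' 0.07 from -0.03 to 0.08. In reloaded minus control, the core median ran from -0.136 to -0.0475 and the regulatory genes below 0 from 10 to 19 with an array left out. The causes were not tested. No paired analysis was possible because the groups compared share fewer than 2 replicate numbers. Values near the array background limit Psma8 and the weaker probe sets of Psmd7, for which no change could be read. Tested members close to the filter's floor of 5.83 included Psmb9 (log2 5.92 to 6.74) and Traf6 (5.92 to 6.44). On the calf arrays, Psmd10 (5.50 to 5.85) lay under the floor except on reloaded replicate 14. It passed the filter through the arrays of the flight experiment (5.87 to 6.29). The differences and bounds given for these members are less certain as measures of change.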
